A study of Mus musculus with 6 samples.

Results

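The 8 genes described here are the Notch receptors Notch1, Notch2, Notch3 and Notch4 and the Notch ligands Jag1, Jag2, Dll1 and Dll4, taken by name from a table of 40808 mouse genes counted in 6 spleen libraries. The gene identifiers of the table were matched to gene symbols, and all 8 genes were present. The libraries were made from RNA of leukaemic spleen of mice that had received a bone marrow transplant, and 3 were labelled NO_DOX (replicates 4, 5 and 6, treatment "no") and 3 ON_DOX (replicates 10, 11 and 12, treatment "Dox"). The title of the study places them in work on the control of NOTCH by UVRAG, ITCH and the ESCRT machinery. The labels do not state the genotype or strain of donor or host, the gene under Dox control, the dose or time of Dox, the age or sex of the mice, the leukaemia driver, or whether each library came from 1 mouse, so p-values measure the spread between libraries, which may be technical.

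Notch receptors are transmembrane proteins that are cut when a ligand on a neighbouring cell binds them, and the freed intracellular part enters the nucleus and switches on target genes together with RBPJ. Jagged and Delta-like proteins are the ligands, and they are themselves membrane proteins of the signal-sending cell. In lymphoid tissue NOTCH1 drives commitment to the T lineage and is a common oncogene of T cell leukaemia, NOTCH2 is needed for marginal zone B cells, and stromal and endothelial cells of the spleen present Delta-like and Jagged ligands.

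All 8 genes lie on autosomes, and their promoter windows were compared because Notch1 and Notch3 fell together while Jag1 rose. RefSeq windows of 300 bases, from 250 bases before to 50 bases after the annotated start on GRCm38.p6, were found for all 8 genes (9 windows, since Dll1 has an annotated pair of starts). The windows of Notch1 (chr2:26503773-26504072, minus strand), Notch3 (chr17:32166841-32167140, minus strand) and Jag1 (chr2:137116471-137116770, minus strand) are given 5′ to 3′ on the strand of the gene, with matches to the GC box GGGCGG, on either strand, in capitals.
Notch1: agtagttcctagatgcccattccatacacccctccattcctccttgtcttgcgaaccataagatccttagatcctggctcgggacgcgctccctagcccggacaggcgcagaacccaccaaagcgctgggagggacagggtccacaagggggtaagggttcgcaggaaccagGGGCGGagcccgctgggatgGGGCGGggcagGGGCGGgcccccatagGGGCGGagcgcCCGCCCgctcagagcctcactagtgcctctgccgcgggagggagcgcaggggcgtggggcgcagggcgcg
Notch3: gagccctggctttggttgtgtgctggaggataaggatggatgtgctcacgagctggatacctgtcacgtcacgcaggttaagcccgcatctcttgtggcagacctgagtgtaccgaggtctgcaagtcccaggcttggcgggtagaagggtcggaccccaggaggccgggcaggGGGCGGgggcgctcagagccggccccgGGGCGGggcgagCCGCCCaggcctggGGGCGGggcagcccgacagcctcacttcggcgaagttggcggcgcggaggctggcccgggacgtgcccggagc
Jag1: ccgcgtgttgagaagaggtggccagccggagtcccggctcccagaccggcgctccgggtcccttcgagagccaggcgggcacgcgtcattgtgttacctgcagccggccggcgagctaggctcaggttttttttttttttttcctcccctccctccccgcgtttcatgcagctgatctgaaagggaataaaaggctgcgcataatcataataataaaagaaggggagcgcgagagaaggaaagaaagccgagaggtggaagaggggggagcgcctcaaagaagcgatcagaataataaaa
The Notch1 window held 5 GC box matches and the Notch3 window 4. The Notch2 window held 7, that of Jag2 5 and that of Dll4 2, while those of Jag1, Notch4 and Dll1 held none. GC boxes were found in 5 of the 9 member windows (Notch1, Notch2, Notch3, Jag2 and Dll4) and in 35.7% of 32851 mouse promoter windows of the same length. The RBPJ core TGGGAA was in 0 of the 9 windows and in 25.6% of all windows, and the RUNX core TGTGGT, the ETS core CCGGAA, the E-box CACGTG and the TATA box TATAAA were also in 0 of the 9 (16.8%, 14.9%, 7.15% and 13.6% of all windows). Both strands were searched and no motif contains another. GC content was 68.3% for Notch1, 70.0% for Notch3 and 55.7% for Jag1, against a median of 52.7% over all windows.

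The libraries were read at the 3′ end of each mRNA, so that each transcript is expected to give 1 fragment whatever its length, and levels of different genes were compared as CPM (counts scaled to a library total of 1000000) without scaling by length. Such counts do not tell a full-length transcript from a shortened one with the same 3′ end. Total counts were 5541486 to 8725767 per library, and 3 counts, taken as the limit of detection, corresponded to 0.344 to 0.541 CPM (counting error only). Libraries with Dox varied more among themselves: the biological coefficient of variation common to all genes was 0.190 among NO_DOX and 0.516 among ON_DOX libraries. Sex-linked genes also moved with the groups: 4 Y-linked genes summed to 545 to 801 counts in each NO_DOX library and 0 in each ON_DOX library, while Xist had 193 to 324 and 3347 to 5669 counts. Dox and the sex of the cells therefore cannot be told apart in any comparison below.

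The labelled source, leukaemic cells, was checked against lineage markers. The 15 T lineage markers summed to 2265 to 2400 CPM in NO_DOX libraries and 292 to 423 CPM in ON_DOX libraries. Of the 15, 13 were lower in ON_DOX, against 22.1% of all tested genes. Cd3d, a chain of the T cell receptor complex, went from 423 to 17.8 CPM, and Rag1, a recombinase of immature lymphocytes, from 162 to 5.19 CPM (means, n = 3 each). The 10 B cell markers summed to 32.0 to 40.1 CPM in NO_DOX and 2085 to 2430 CPM in ON_DOX. Both sets of libraries carry the same label of leukaemic spleen, while T lineage markers were lower and B cell markers higher in ON_DOX. In such bulk libraries, fewer cells of a type and less RNA per cell cannot be told apart.

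Of the 8 genes, 7 passed the filter on low counts and were tested, and for 5 of these the groups differed (quasi-likelihood test of edgeR, Benjamini-Hochberg adjusted p below 0.05 over 14110 genes). Notch1 and Notch3 were lower with Dox, and Notch4, Jag1 and Dll1 were higher. Across all tested genes 45.6% passed this threshold, 23.6% higher and 22.1% lower, so that 5 of 7 is a count against a high background. The median log2 fold change of the 7 tested genes was 0.61, and that of all tested genes was 0.07. Notch4, Jag1, Jag2 and Dll1 passed the filter through their counts in ON_DOX libraries, where they were higher. They could not be tested when at least 10 counts were required in every library. Their part in the 5 of 7 and in the median of 0.61 therefore depends on that filter. In CPM the groups did not overlap for 6 of the 7 tested genes, against 60% of all tested genes, and after TMM scaling for 5 of the 7, against 59.6%.

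**Figure D1:**
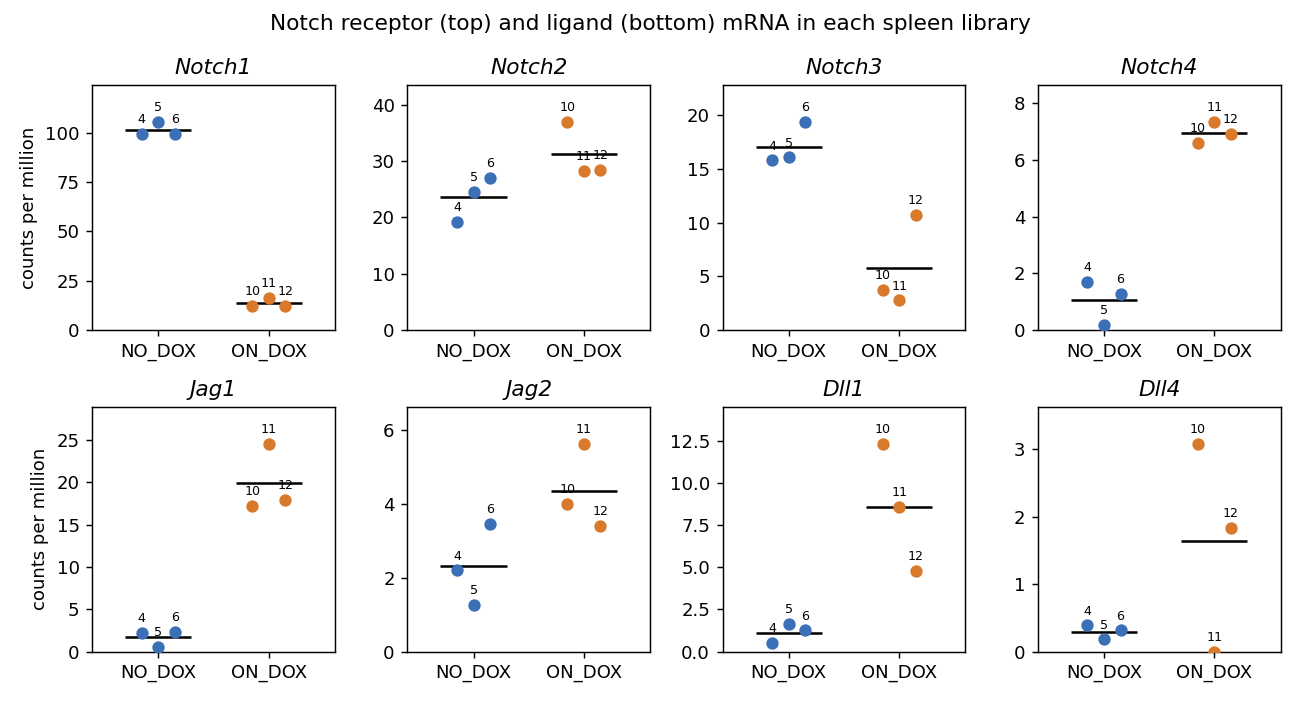
CPM of the 4 receptors (top row) and 4 ligands (bottom row), 1 panel per gene with its own axis from 0; points are libraries labelled by replicate number and lines are group means (n = 3). Notch1 and Notch3 sat lower in ON_DOX, Notch4, Jag1 and Dll1 higher, and Jag2 and Dll4 overlapped between the groups.

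Notch1 (Entrez gene 18128, chr2:26457902-26503822, minus strand, 34 exons in the principal transcript) encodes the receptor that commits progenitors to the T lineage. It had 767, 583 and 631 counts in NO_DOX replicates 4, 5 and 6 and 79, 140 and 86 counts in ON_DOX replicates 10, 11 and 12. On the CPM scale NO_DOX libraries had 99.2, 105 and 99.1 and ON_DOX libraries 12.2, 16.0 and 12.2. The 3 libraries of each group lay close together, and every ON_DOX library was far below every NO_DOX library. The log2 fold change of Notch1 was -3.21 (SE 0.21, 95% interval -3.67 to -2.75, edgeR adjusted p = 3.25e-06), a 9.27-fold decrease. Among all tested genes 7.82% changed at least as much in either direction. Of the 15 alternative analyses, all kept Notch1 lower at an adjusted p-value under 0.05, with log2 fold changes from -3.38 to -2.90.

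The decrease of Notch1 was set against the T lineage markers of the same library. Per 1000 counts of the 15 markers, Notch1 had 42.4, 46.5 and 41.3 counts in the NO_DOX libraries and 28.8, 41.3 and 41.6 counts in the ON_DOX libraries. These ratios overlapped between the groups, with ON_DOX replicate 10 the lowest, but the overlap depends on which markers are summed. The T lineage list itself had a median log2 fold change of -3.23, next to -3.21 for Notch1. Its members were not uniform: Thy1, a surface protein of T cells, fell by 5.72 on the log2 scale. Cd2 and Cd5, adhesion and inhibitory receptors of lymphocytes, had log2 fold changes of -0.13 and -0.74 that did not pass the threshold (edgeR adjusted p = 0.670 and 0.211). Cd2 and Cd5 held 6.44% of the T lineage counts in NO_DOX and 42.9% in ON_DOX. The part of cells outside the T lineage in their counts was not tested. Over the other 13 markers (a choice made after seeing the data) Notch1 had 45.3, 49.6 and 44.2 counts per 1000 in NO_DOX, against 53.0, 79.1 and 60.6 in ON_DOX, and every ON_DOX library was higher. Leaving out any one of Cd3d, Cd3g, Ptcra, Thy1 and Rag1 instead put every ON_DOX library lower. The ratio therefore has no fixed direction, and the part of T cell content in the Notch1 difference was not tested.

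Notch3 (Entrez gene 18131, chr17:32120820-32166896, minus strand, 33 exons) encodes a receptor of immature T cells and of mural cells of vessels. Its counts were 122, 89 and 123 in NO_DOX and 24, 24 and 76 in ON_DOX replicates 10, 11 and 12, or 15.8, 16.1 and 19.3 CPM against 3.69, 2.75 and 10.7 CPM. The NO_DOX libraries agreed closely, and among the ON_DOX libraries replicate 12 was well above replicates 10 and 11, though still below each NO_DOX library. Notch3 had a log2 fold change of -1.86 (SE 0.52, edgeR adjusted p = 0.0148). The size of the fall depended on replicate 12, without which it was -2.75 (adjusted p = 0.000252). Leaving out replicate 6 of NO_DOX gave -1.89 with an adjusted p-value of 0.0478, the highest among the alternatives.

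Set against the T lineage markers, Notch3 had 6.74, 7.09 and 8.05 counts per 1000 marker counts without Dox and 8.74, 7.08 and 36.8 with Dox. Replicate 12 was far above all others, and replicate 10 was slightly above every NO_DOX library. When Cd2 and Cd5 were left out, Notch3 had 7.20, 7.57 and 8.61 counts per 1000 in NO_DOX, against 16.1, 13.6 and 53.5 in ON_DOX, and all 3 ON_DOX libraries were then higher. Mural and vessel markers were uneven across the ON_DOX libraries. Of the 12 stromal and mural markers, 7 were lowest and 3 highest in replicate 12, and their sum was lowest there (815, 910 and 608 CPM in replicates 10, 11 and 12). Of the 12 endothelial markers, 3 were lowest and 6 highest in replicate 12, and their sum was highest there (163, 189.7 and 226 CPM). Their part in the Notch3 level of replicate 12 was not tested.

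Notch2 (Entrez gene 18129, chr3:98013538-98150367, plus strand, 34 exons) encodes the receptor required by marginal zone B cells and some dendritic cells. It had 148, 136 and 172 counts in NO_DOX and 240, 247 and 201 counts in ON_DOX, or 19.2, 24.5 and 27.0 CPM against 36.9, 28.3 and 28.4 CPM. The ON_DOX libraries were all slightly higher in CPM, but the groups overlapped after TMM scaling of library composition. The log2 fold change was 0.10 with a 95% interval of -0.44 to 0.65 (edgeR adjusted p = 0.758). This interval includes changes in either direction and does not show that the groups were alike. With scaling by library size only the log2 fold change was 0.41 (adjusted p = 0.215), while the median of all genes moved up by 0.31, and the sign turned in 3 alternatives, with values of -0.048 to -0.029.

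Notch2 was also set against the B cell markers. Per 1000 counts of the 10 B cell markers it had 599 to 675 counts in NO_DOX libraries and 11.7 to 16.0 in ON_DOX libraries. This ratio was lower in ON_DOX for the other members too, such as Jag1 (13.9 to 68.8 against 7.47 to 10.1). Of the 6 marginal zone B cell markers, 4 rose and 1 (Dtx1, also a Notch target) fell, where 23.6% of all tested genes were higher and 22.1% lower. The 6 summed to 259 to 286 CPM without Dox and 376 to 471 CPM with Dox. Most of the NO_DOX sum came from Dtx1, and the other 5 markers summed to 43.3 to 55 CPM without Dox and 262 to 370 CPM with Dox. The part of B cell content in the Notch2 level was not tested.

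Notch4 (Entrez gene 18132, chr17:34564286-34588543, plus strand, 30 exons) encodes a receptor found mainly on endothelium. It had 13, 1 and 8 counts in NO_DOX and 43, 64 and 49 counts in ON_DOX, or 1.68, 0.18 and 1.26 CPM against 6.62, 7.33 and 6.92 CPM. The ON_DOX libraries were tight, and the groups did not overlap. Notch4 rose by 2.39 on the log2 scale (SE 0.81, 95% interval 0.58 to 4.19, edgeR adjusted p = 0.0347). The call needed all 6 libraries: leaving out any one of them gave adjusted p-values of 0.0519 (without ON_DOX replicate 12) to 0.120 (without NO_DOX replicate 5), with the direction kept.

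Endothelial markers were placed beside Notch4. Of 12, 9 were tested and 2 of these rose, next to 23.6% of all tested genes, while 7 did not pass the threshold, and their summed level was 77.2 to 95.7 CPM in NO_DOX and 163 to 226 CPM in ON_DOX. The ones that rose were Stab2, a scavenger receptor of sinusoidal endothelium, and Kdr, the VEGF receptor, by 2.24 and 1.85 on the log2 scale. Cdh5, the endothelial cadherin, had a log2 fold change of -0.05 (adjusted p = 0.955) and Pecam1 0.19 (adjusted p = 0.631), and Emcn was not detected above the limit of 3 counts in any library of either group. Per 1000 counts of this list Notch4 had 17.6, 2.34 and 15.9 counts in NO_DOX and 40.6, 38.7 and 30.7 counts in ON_DOX. The ratio was higher in each ON_DOX library. The part of vascular content in the rise of Notch4 was not tested.

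The balance between the receptors was examined within each library, where it does not depend on scaling. The ratio of Notch2 to Notch1 counts was 0.193, 0.233 and 0.273 in NO_DOX and 3.04, 1.76 and 2.34 in ON_DOX. Notch1 exceeded Notch2 in every NO_DOX library, and Notch2 exceeded Notch1 in every ON_DOX library. The mean log2 ratio went from -2.12 ± 0.25 to 1.22 ± 0.39 (SD, n = 3 each), a difference of 3.33 (exact two-sided permutation p = 0.1, the smallest that 3 against 3 libraries allow). Of the summed receptor counts, Notch1 made up 70.9% ± 2.9 without Dox and 23.6% ± 5.1 with Dox, and Notch2 16.4% ± 2.2 and 54.3% ± 7.0 (SD, n = 3 each). Notch4 went from 0.739% ± 0.566 to 12.2% ± 1.2, and Notch3 took 11.9% ± 1.1 and 9.91% ± 7.42, where the ON_DOX mean rests on replicate 12 and was 5.64% without it, below each NO_DOX library.

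**Figure D2:**
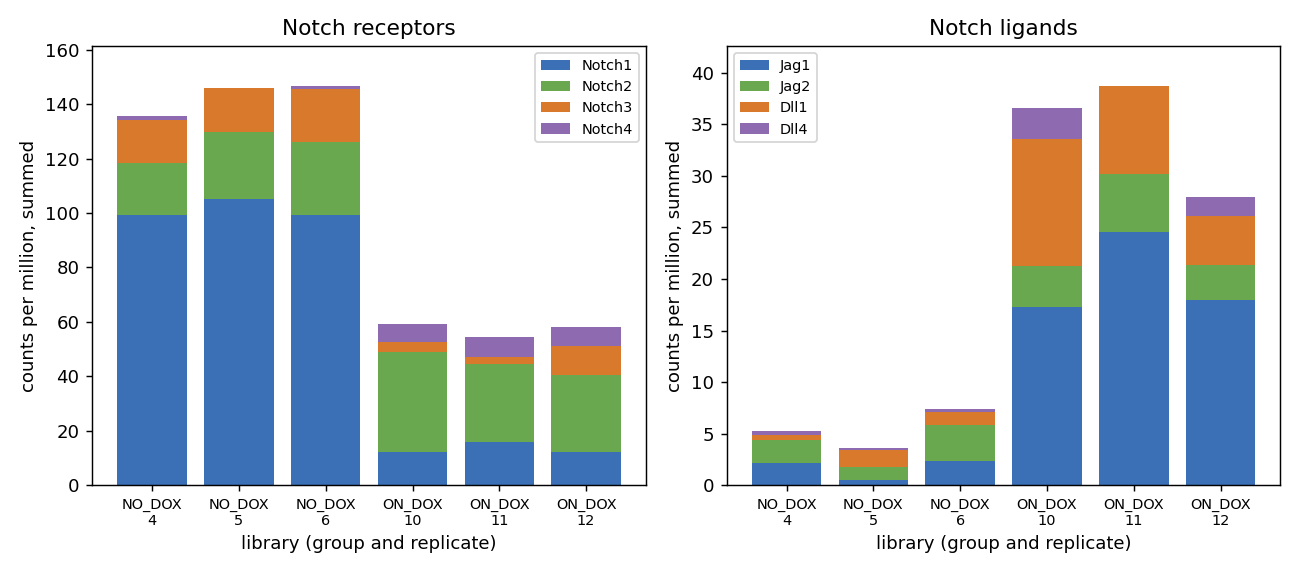
Summed CPM of the 4 receptors (left) and the 4 ligands (right) in each library, stacked by gene; the 2 panels have different axes, both from 0. Receptor sums were 136 to 147 CPM in NO_DOX and 54.4 to 59.4 CPM in ON_DOX, and ligand sums 3.61 to 7.39 and 28.0 to 38.7 CPM.

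The ligands were scarce without Dox. Jag1 (Entrez gene 16449, chr2:137081451-137116520, minus strand, 26 exons), a Jagged ligand of stromal, endothelial and dendritic cells, had 17, 3 and 15 counts in NO_DOX and 112, 214 and 127 counts in ON_DOX. In CPM these were 2.20, 0.54 and 2.36 against 17.2, 24.5 and 17.9. Every ON_DOX library was above every NO_DOX library, with replicate 11 the highest. Jag1 rose by 3.21 on the log2 scale (SE 0.53, 95% interval 2.03 to 4.39, edgeR adjusted p = 0.000806), a 9.25-fold increase. The 14 alternatives that tested it all kept this call, with log2 fold changes of 2.75 to 3.52.

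Dll1 (Entrez gene 13388, chr17:15367354-15376932, minus strand, 11 exons) encodes the Delta-like ligand on which marginal zone B cells depend. Its counts were 4, 9 and 8 in NO_DOX and 80, 75 and 34 in ON_DOX, or 0.52, 1.62 and 1.26 CPM against 12.3, 8.59 and 4.80 CPM. The ON_DOX libraries spread widely, with replicate 12 the lowest, and the groups did not overlap. Dll1 rose by 2.61 on the log2 scale (SE 0.71, edgeR adjusted p = 0.0130). Without NO_DOX replicate 4 the value was 2.23 (adjusted p = 0.0642) and without ON_DOX replicate 10 it was 2.25 (adjusted p = 0.0538), so that the call was lost in these 2 fits.

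Jag2 (Entrez gene 16450, chr12:112907803-112929812, minus strand, 26 exons), the other Jagged ligand, had 17, 7 and 22 counts in NO_DOX and 26, 49 and 24 counts in ON_DOX, or 2.20, 1.26 and 3.46 CPM against 4.001, 5.62 and 3.39 CPM. The highest NO_DOX library lay above the lowest ON_DOX library. The log2 fold change of 0.61 had a 95% interval of -0.99 to 2.21 (edgeR adjusted p = 0.521), which also includes a change in either direction.

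Dll4 (Entrez gene 54485, chr2:119325784-119335666, plus strand, 11 exons), the ligand that triggers NOTCH1 in thymic progenitors and patterns vessels, was low in every library. It had 3, 1 and 2 counts in NO_DOX and 20, 0 and 13 counts in ON_DOX. With 0 counts in ON_DOX replicate 11, which allow a level of up to 0.344 CPM, and 3.08 and 1.84 CPM in replicates 10 and 12, the groups overlapped. Dll4 did not pass the filter on low counts, and only 5 alternatives gave it a fold change, none of them past the threshold. Its log2 fold change was 1.96 with no low-count filter (edgeR adjusted p = 0.508) and 1.79 to 2.33 with 1 NO_DOX library left out (adjusted p = 0.466 to 0.568). Without ON_DOX replicate 11, the library with 0 counts, it was 2.63 (adjusted p = 0.0716).

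Stromal and mural markers also moved with the groups and were placed beside the ligands. Of 12 markers, 7 rose and 2 fell (23.6% and 22.1% of all tested genes), and their summed level was 332 to 392 CPM without Dox and 608 to 910 CPM with Dox. Ccl19 and Cxcl13, chemokines of lymphoid stroma, went from 1.24 to 143 CPM and from 2.24 to 128 CPM (means, n = 3 each), whereas Col1a1, a fibrillar collagen, fell by 0.80 on the log2 scale (edgeR adjusted p = 0.00698). Per 1000 counts of this list, Jag1 had 1.63 to 6.52 counts in NO_DOX and 21.2 to 29.5 in ON_DOX, and Dll1 had 1.53 to 4.89 and 7.91 to 15.1. Both ratios were higher in each ON_DOX library, also without Ccl19 and Cxcl13 (left out, like each marker here, after seeing the data), although the Dll1 ratio overlapped between the groups when Col1a2 was left out. Of 13 myeloid markers, 10 were higher and 1 lower (23.6% and 22.1% of all tested genes). Their summed level was 179 to 186 CPM without Dox and 2177 to 2249 CPM with Dox, and Ly6g had 0 counts in all NO_DOX libraries. Per 1000 myeloid counts Jag1 had 2.90 to 12.7 in NO_DOX and 7.92 to 11.2 in ON_DOX, and Dll1 had 2.89 to 8.71 and 2.14 to 5.66. The groups overlapped for both genes. The neutrophil genes S100a8 and S100a9 held 24.7% of the myeloid counts in NO_DOX and 77.1% in ON_DOX. Without them Jag1 had 3.90 to 17.0 counts per 1000 in NO_DOX and 34.1 to 43.1 in ON_DOX, which no longer overlapped, and Dll1 had 3.99 to 11.7 and 11.5 to 24.4, which still did. Per 1000 endothelial marker counts Jag1 had 7.01 to 29.9 in NO_DOX and 79.5 to 129 in ON_DOX. For Dll1 these were 5.4 to 21.03 and 21.29 to 75.5, so that its groups nearly touched. The part of stromal, myeloid and vascular content in the ligand differences was not tested.

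**Figure D3:**
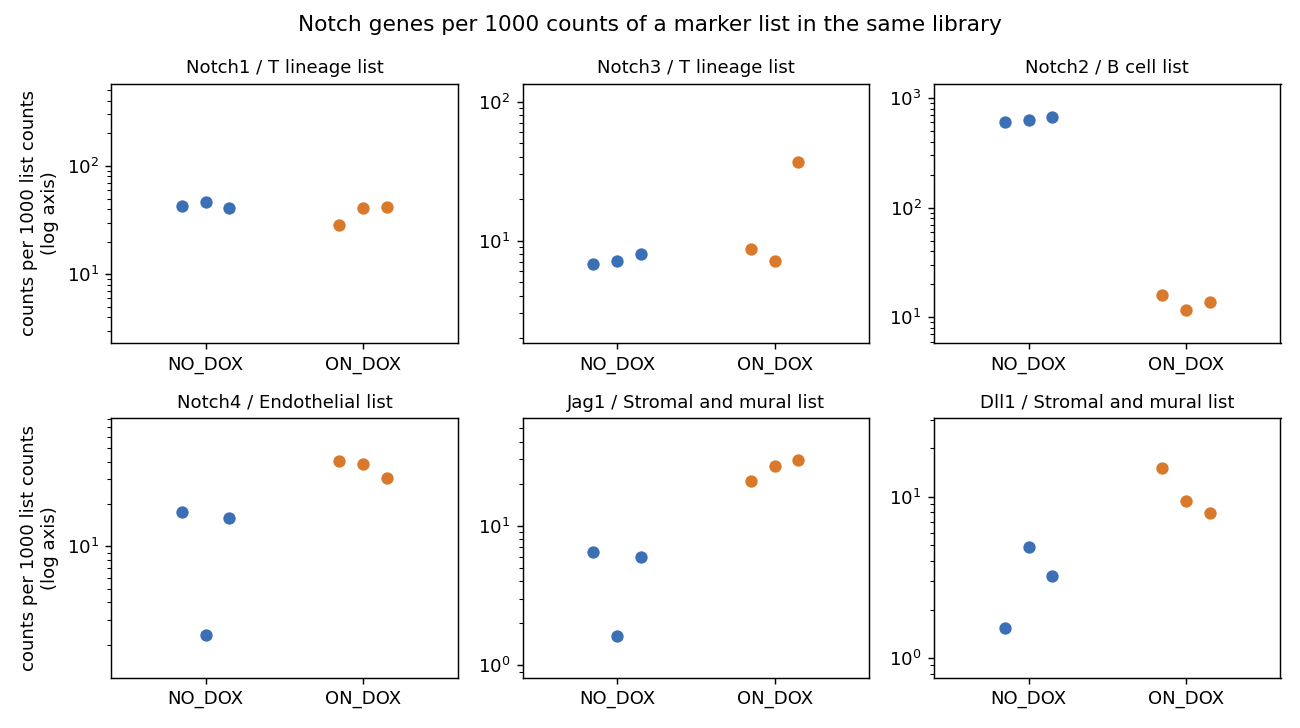
Counts of a Notch gene per 1000 summed counts of a marker list in the same library, 1 panel per pair, on log axes; points are libraries. Notch1 per T lineage count overlapped between groups over all 15 markers (28.8 to 46.5). It was higher in every ON_DOX library without Cd2 and Cd5, and lower in every one when any one of Cd3d, Cd3g, Ptcra, Thy1 and Rag1 was left out. Notch4 per endothelial count and Jag1 and Dll1 per stromal count were higher in every ON_DOX library, although Dll1 overlapped without Col1a2. Notch2 per B cell count was lower in every ON_DOX library.

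The sums over each family were also compared, with no test. Notch1 was the largest part of the receptor sum without Dox and Jag1 the largest part of the ligand sum with Dox, and other members of each family differed from the sum: Notch4 was higher with Dox, and Notch2 and Jag2 did not pass the test. Receptor counts summed to 143 ± 6.1 CPM in NO_DOX and 57.4 ± 2.6 CPM in ON_DOX, and ligand counts to 5.43 ± 1.89 and 34.5 ± 5.7 CPM (SD, n = 3 each). For every 100 receptor counts there were 3.80 ± 1.28 ligand counts without Dox and 60.3 ± 11.6 with Dox. Within the ligands Jag1 made up 58.2% ± 9.6 of the counts with Dox and 29.5% ± 13.4 without (SD, n = 3 each). The NO_DOX shares rest on few counts, and no ligand led in all 3 of those libraries.

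The order of levels differed between the groups. In NO_DOX it ran Notch1, Notch2, Notch3, Jag2, Jag1, Dll1, Notch4 and Dll4, and only Notch1 over Notch2 and Notch3 over Jag2 were separated from the next gene by ranges that did not overlap. In ON_DOX it ran Notch2, Jag1, Notch1, Dll1, Notch4, Notch3, Jag2 and Dll4. There Notch2 over Jag1, Jag1 over Notch1 and Jag2 over Dll4 were separated, and the genes from Notch1 to Jag2 each overlapped the next.

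**Figure D4:**
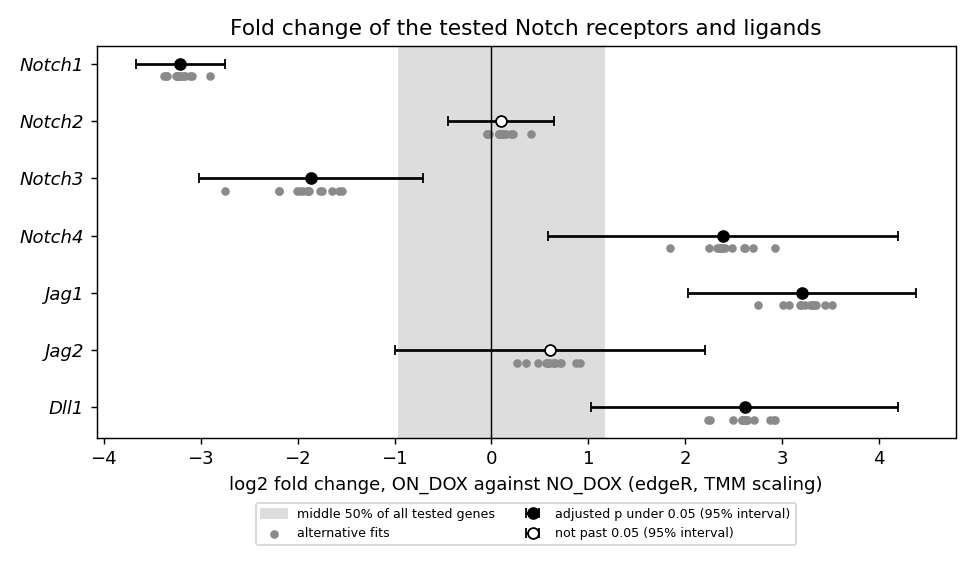
Log2 fold change (ON_DOX against NO_DOX, edgeR with TMM scaling) of the 7 tested genes, with 95% intervals; filled points passed an adjusted p-value of 0.05, grey dots are the alternative analyses and the grey band spans the middle 50% of all tested genes. Notch1 (-3.21) and Jag1 (3.21) lie outside the band at opposite ends with their whole intervals, and Notch2 and Jag2 span 0.

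The genes whose profile over the 6 libraries came closest to a Notch receptor were looked up among 10130 genes whose counts reached 10 or more in all libraries, by the root mean square difference of centred log2 CPM. For Notch1 these were Rpl36a, a ribosomal protein gene (0.070), Ikzf2, the Helios transcription factor (0.11), and Atf5, a stress-responsive transcription factor (0.13). Rpl36a belongs to a family with many near-identical copies, so its counts are uncertain. For Notch2 they were Tkt, the pentose phosphate enzyme transketolase (0.074), Cdc42se1 (0.084) and Psme4, a proteasome activator (0.089), and for Notch3 Eef1akmt1 (0.12), the histone gene H3c8 (0.14) and Serf1 (0.16). Histone genes of this kind also share sequence with close copies. Notch4 and the ligands had too few counts for this comparison.

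Of 50 other genes of the pathway, 42 were tested, 10 rose and 14 fell, where 23.6% of all tested genes were higher and 22.1% lower, and their median log2 fold change was -0.00019 against 0.07 for all genes. Genes outside the 6 with the largest changes were chosen after their values were seen, and are given by direction alone. Among genes that modify receptors with sugars, which tunes their choice of ligand, Lfng, Pofut1 and Gxylt1 rose and Mfng fell (4 of 6 tested). Of the ligases that drive ligand endocytosis, Neurl3 rose and Mib1 fell. In the nuclear complex Maml2 and Spen rose and 5 of 7 did not pass. Among inhibitors and turnover genes Uvrag rose, and Numbl, Nedd4, Cbl and Nrarp fell.

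The outputs had 6 genes lower and 1 higher of 8 tested, where 22.1% of all tested genes were lower and 23.6% higher. Heyl, a transcriptional repressor induced by NOTCH, went from 25.2 ± 1.4 to 0.240 ± 0.292 CPM (SD, n = 3 each, edgeR adjusted p = 2.6e-05). Il2ra went from 102 ± 2.4 to 6.05 ± 2.67 CPM, Myc from 109.5 ± 9.1 to 9.12 ± 1.33 CPM and Ptcra, the pre-T cell receptor chain, from 24.6 ± 3.5 to 0.410 ± 0.711 CPM. Cr2, a complement receptor of B cells and follicular dendritic cells, went the other way, from 0.706 ± 0.612 to 191 ± 35 CPM. Numbl, a NOTCH inhibitor and the sixth of these genes, was 2.01 ± 0.29 CPM without Dox and at or under 3 counts in each ON_DOX library (edgeR adjusted p = 0.0214). Ptcra is also among the T lineage markers and Cr2 and Dtx1 among those of marginal zone B cells, so these lists are not independent.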

How the data were processed

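The RNA was made into 3′ end mRNA libraries (QuantSeq, forward version), per the labels' protocols. STAR, featureCounts and build GRCm38 are named in the submitters' processing notes; annotation, strand setting and use of molecular identifiers are not given in the sources used here. The authors deposited raw read counts by Entrez gene ID with a column for each library; all 6 columns were matched by title. Symbols (39374 of 40808 IDs), coordinates and promoters came from RefSeq GRCm38.p6, and exon counts from GENCODE. An annotated gene on the opposite strand, 0610009E02Rik, overlaps the 3′ end of Notch1 and had 0 to 4 counts per library, and a second one there, Gm13568, was not analysed here. Genes on the opposite strand also overlap exons of Notch3, Dll1 and Dll4, and without the strand setting their reads cannot be told apart. The one at Dll4, Gm14207, had 7 counts in ON_DOX replicate 10, where Dll4 had 20, and 0 in every other library. Gm42820, not analysed here, overlaps exon sequence of Notch2 on the same strand.

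Low counts were removed by filterByExpr (min.count 10, min.total.count 15), scaled with TMM factors and tested with the quasi-likelihood test of edgeR 4.0.16 (R 4.3.3) on all 6 libraries, with Benjamini-Hochberg adjustment over all 14110 tested genes; scripts were tested on simulated data. CPM in the text are scaled by the library total alone, without TMM factors. Alternatives used DESeq2 1.42.0 and limma 3.58.1, other scalings and filters, and each library left out. No pair of libraries of a group agreed within counting noise (chi-square per degree of freedom at least 6.85), so none was merged as a repeat deposit; this does not show that they came from separate mice. The members and gene lists were chosen with earlier results of these data known. Named genes were the 8 members, the 3 genes nearest in profile to each member with at least 10 counts in every library (prior count 1), and the 6 pathway genes with the largest changes; marker genes were picked out with their values known. Erythroid markers (10 genes) had 5 higher and 2 lower, and megakaryocyte markers (6 genes) 5 higher with Dox. Over all tested genes 23.6% were higher and 22.1% lower.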

Additional observations from a re-analysis of the deposited data

How the results depend on the processing

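No paired analysis was possible because no replicate number occurs in both groups. Of the 5 genes called, 5 were also called with DESeq2 size factors, upper-quartile factors, library size only, DESeq2, limma-voom, limma-voom with a variance for each group (chosen after seeing the data), and without haemoglobin, receptor segment and mitochondrial genes. With no low-count filter 4 were called (edgeR), Notch4 not (adjusted p = 0.0791). Requiring at least 10 counts in every library left 3 genes to test (Notch1, Notch2 and Notch3), so that 2 were called, 0 of them higher (0 also at an unadjusted p under 0.05; DESeq2 and limma-voom with the usual filter called 3 higher). At an adjusted p-value under 0.01, 2 were called, 1 higher and 1 lower. Leaving out each library in turn gave 3 to 4 genes called, 1 to 2 higher and 2 lower throughout. The background over all tested genes also changed with the setting. It was 6438 called of 14110 in the main fit, 6544 of 27308 with no low-count filter and 5292 of 10131 with at least 10 counts in every library. With a library left out it ran from 4794 of 15676 (NO_DOX replicate 5) to 7025 of 14800 (ON_DOX replicate 12). The Notch2 fold change, never past the threshold, reversed to -0.029 with no low-count filter, -0.048 without NO_DOX replicate 4 and -0.042 without ON_DOX replicate 10, and ran from -0.048 to 0.15 over the 6 fits that each left out a library. The difference in the log2 ratio of Notch2 to Notch1 ran from 3.14 to 3.53 over those fits. The causes were not tested. Depth limits Notch4 and the ligands without Dox, which had 6 to 46 counts in all over the 3 libraries.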
